A study of Mus musculus with 17 samples.

Results

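The clustered protocadherins are a family of adhesion genes that lie side by side as an alpha, a beta and a gamma cluster. All genes whose symbols name an alpha, beta or gamma clustered protocadherin were taken, 58 of the 55450 genes in the bulk table: 14 alpha, 22 beta and 22 gamma members. Membership follows from the symbols, but the family was selected on its bulk expression pattern across the groups, so the bulk values are given here as a description and support nothing by themselves. The symbol Pcdha11 belongs to 2 gene identifiers, ENSMUSG00000007440 and ENSMUSG00000102206, and both were kept.

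The members encode cell-surface proteins of the cadherin superfamily, apart from Pcdhgb8, which is annotated as a polymorphic pseudogene. In the alpha and gamma clusters each gene supplies its own variable first exon, which carries the extracellular domain, and this exon is spliced to constant exons shared by the whole cluster, whereas a beta gene carries its coding sequence in an exon of its own, with no shared tail. In neurons each cell switches on a small set of these promoters, with help from CTCF and cohesin, and the resulting combination of surface proteins lets a neurite tell itself from its neighbours. The C-type members at the end of the alpha and gamma clusters are regulated apart from this random choice. DNA methylation and the chromatin protein Smchd1 are known silencers of the clusters.

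Bulk RNA-seq was available for 14 libraries of cultured cells, 2 in each of 7 groups, from female FVB/NJ MMTV-PyMT mice aged 10 to 12 weeks, in which the mammary tumor virus promoter drives the polyoma middle T oncogene in the mammary epithelium. MFP cells came from the primary tumor of the mammary fat pad and carry no CD44 label, while cells grown out of metastases in lung, bone marrow (BM) and lymph node (LN) were sorted as CD44low or CD44high, in both cases with EpCAM high. The replicates of a group are separate clonal isolates, each from another mouse, per the study's methods. Single-cell RNA-seq covered 1 library each of lung CD44high (lungH), lung CD44low (lungL) and LN CD44high (lymphH) cells. The study's methods speak of replicate single-cell samples, and the lung libraries are labelled as replicate 1 while all 3 tables are marked as merged, so what was merged is not known.

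The lung libraries went against the EpCAM-high gate. Epcam, the surface marker of the sort, was 0 TPM (a transcript level scaled for gene length and for the library's total) in both lung CD44low libraries and 0.23 and 0.86 TPM in lung CD44high, against 315 to 941 TPM in the other 10 libraries. The summed TPM of 8 epithelial markers was 1.7 and 2.4 in lung CD44low, 15.7 and 87.5 in lung CD44high, 2091 to 4401 in LN and BM, and 6864 and 7708 in MFP. The summed TPM of 8 fibroblast markers was 4708 and 5117 in lung CD44low and 85.7 and 195 in lung CD44high, with at most 19.9 in any other library. The lung values below stand beside these differences, and the part these cells play in them was not tested. In bulk samples, fewer cells of a type and less RNA per cell cannot be told apart.

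All 58 members lie on the plus strand of mouse chromosome 18 (mm10). The alpha cluster spans chr18:36930184-37187661, the beta cluster chr18:37264938-37524479 and the gamma cluster chr18:37661793-37841873. Of the exon bases of a member, 38.0% to 54.9% lie in exons shared with other members in the alpha cluster and 27.8% to 66.8% in the gamma cluster. In the beta cluster none are shared, apart from 455 bases where Pcdhb21 and Pcdhb22 overlap. At 50 bases, 88.0% to 100% of the words of a beta transcript were found in no other gene, against 34.7% to 68.1% for gamma and 9.9% to 56.0% for alpha members. Reads from shared exons were divided among members by the authors' quantification, so values of single alpha and gamma members are less certain than their sums and than beta values.

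The lung-derived cells held the most clustered protocadherin RNA. The summed TPM of the gamma members was 88.3 and 124 in lung CD44low and 229 and 82.4 in lung CD44high cells, against 31.7 and 17.4 in MFP and 9.16 to 15.4 in the 8 LN and BM libraries. The 4 lung libraries lie above all others, but the lung groups overlap each other, and the lung CD44high replicates lie on either side of lung CD44low. The summed TPM of the beta members was 2.63 and 5.51 in MFP, 5.87 to 22.9 in LN, 19.1 to 22.8 in BM, 27.5 and 40.1 in lung CD44low and 60.5 and 83.5 in lung CD44high. Here the lung groups do not overlap, and the LN CD44low libraries are far apart, at 5.87 and 22.9. The alpha members summed to 7.64 and 9.45 TPM in lung CD44high and to at most 2.58 in any other library.

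**Figure D1:**
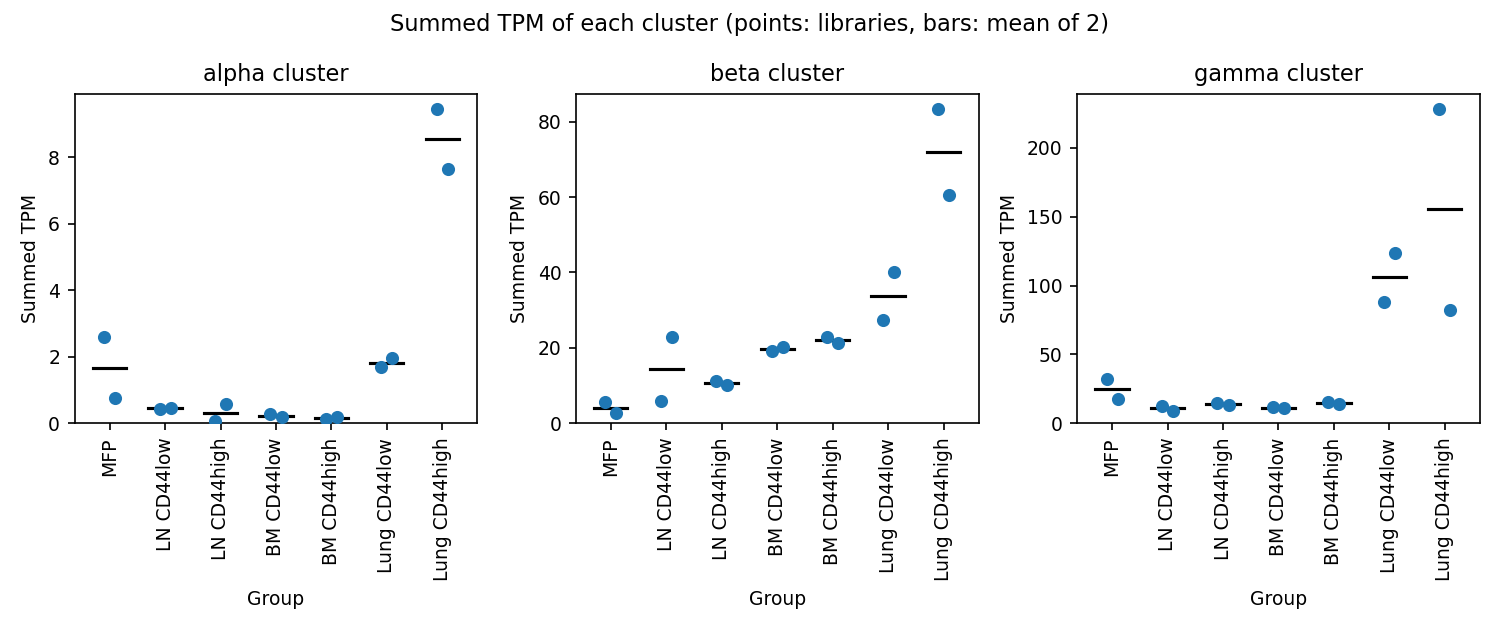
Summed TPM of the alpha, beta and gamma members (vertical axes, each from 0) in the 7 groups. Each point is a library and each bar the mean of the 2 libraries of a group, with the highest means in lung CD44high in all 3 panels.

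The number of members with at least 1 TPM in both libraries of a group was also highest in lung. It was 2 of 58 in MFP (Pcdhgc3 and Pcdhgc4), 2 in LN CD44low, 3 in LN CD44high, 7 in BM CD44low, 8 in BM CD44high, 19 in lung CD44low and 25 in lung CD44high. Over all genes this share hardly moved, between 19.7% in lung CD44high and 21.1% in lung CD44low. A total of 36 members passed the filter for testing, at least 1 TPM in at least 2 libraries: 3 alpha, 18 beta and 15 gamma members. A member that passed through the group where it is high had to differ between groups. The other 22 reached at most 1.38 TPM in any library, and Pcdhac1, a C-type alpha gene, was listed at 0 in all 14.

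**Figure D2:**
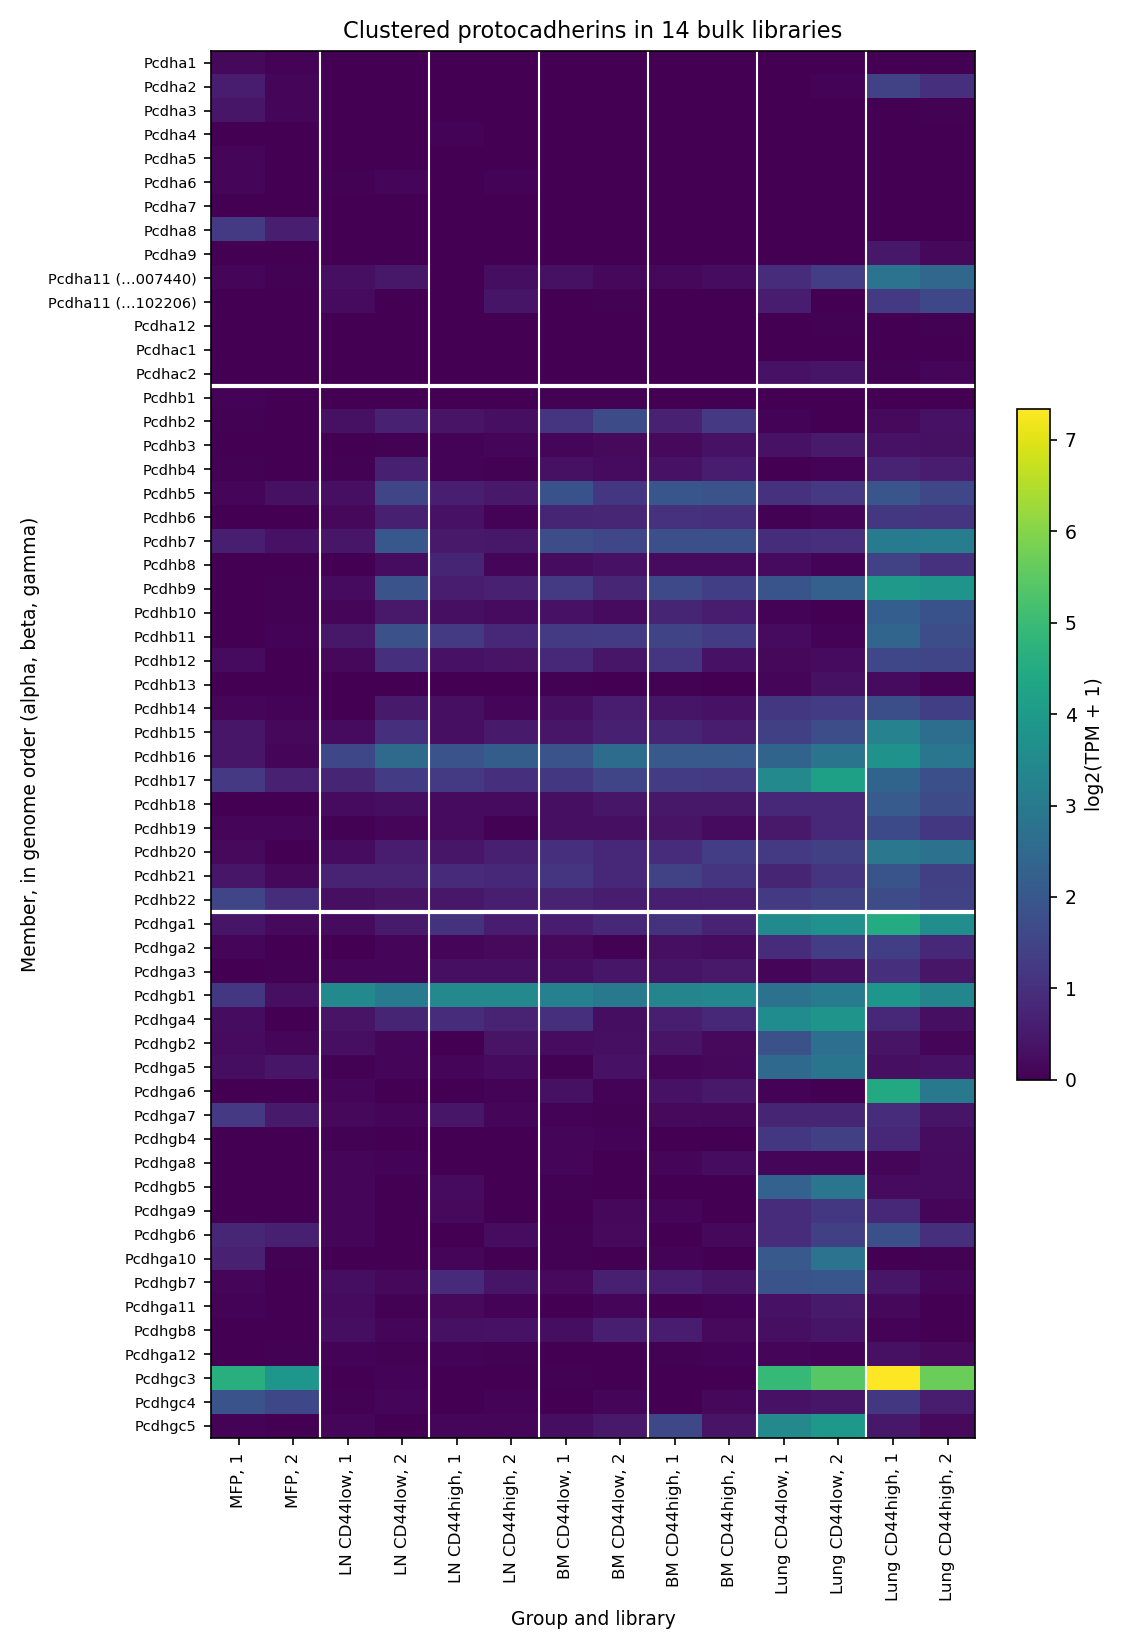
Level of each of the 58 members, as log2(TPM + 1), in the 14 libraries. Rows are members in genome order, with white lines between the alpha, beta and gamma clusters, and columns are libraries by group. Pcdhgc3 is dark in all LN and BM columns and Pcdhgb1 is light there, while the light beta rows lie mainly in the lung CD44high columns.

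Among the gamma members, LN and BM cells used a different gene than MFP cells. Pcdhgc3, a C-type gene whose cytoplasmic region is known to bind the Wnt pathway scaffold Axin1, was 24.0 and 13.5 TPM in MFP, 28.9 and 42.4 in lung CD44low and 161 and 50.8 in lung CD44high. Among the 8 libraries from LN and BM it was listed at 0 in 6 and at 0.04 and 0.06 TPM in the others. The LN and BM libraries thus overlap with neither MFP nor lung. On the log2(TPM + 1) scale, which understates changes of low values, Pcdhgc3 was lower than in MFP by -4.21 ± 0.48 (SE) in LN CD44low, -4.25 ± 0.48 in LN CD44high, -4.22 ± 0.48 in BM CD44low and -4.25 ± 0.48 in BM CD44high. In lung CD44high it was 2.27 ± 0.48 higher than in MFP, and in lung CD44low the difference was 0.92 ± 0.48. The lung CD44high difference was 1.45 without lung CD44high replicate 1 and 1.87 without MFP replicate 2, both below the fold needed for a call. The difference between the lung classes was 1.34 ± 0.48, and 2.17 without lung CD44high replicate 2.

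Pcdhgb1, a B-type gamma gene, showed the opposite picture in LN and BM. It was 1.30 and 0.24 TPM in MFP, 10.2 and 7.17 in LN CD44low, 9.92 and 9.99 in LN CD44high, 8.39 and 6.77 in BM CD44low, 9.11 and 9.81 in BM CD44high, 5.61 and 6.99 in lung CD44low and 13.6 and 9.29 in lung CD44high. All 12 metastasis-derived libraries lie above both MFP libraries. Some of their groups overlap with each other, but lung CD44low overlaps with BM CD44low alone, and LN CD44high with neither BM group. Its log2 differences from MFP ran from 2.11 ± 0.34 in lung CD44low to 2.86 ± 0.34 in lung CD44high. In lung CD44low it fell short of a log2 difference of 2 without MFP replicate 2 (1.66) or lung CD44low replicate 2 (1.97), as it did in BM CD44low without MFP replicate 2 (1.89). Pcdhgb1 made up 59.0% to 82.7% of the gamma sum in LN and BM libraries, 1.4% and 4.1% in MFP and 5.7% to 11.3% in lung. Pcdhgc3 made up 75.5% and 77.2% in MFP, 32.8% and 34.3% in lung CD44low, and 70.3% and 61.6% in lung CD44high.

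**Figure D3:**
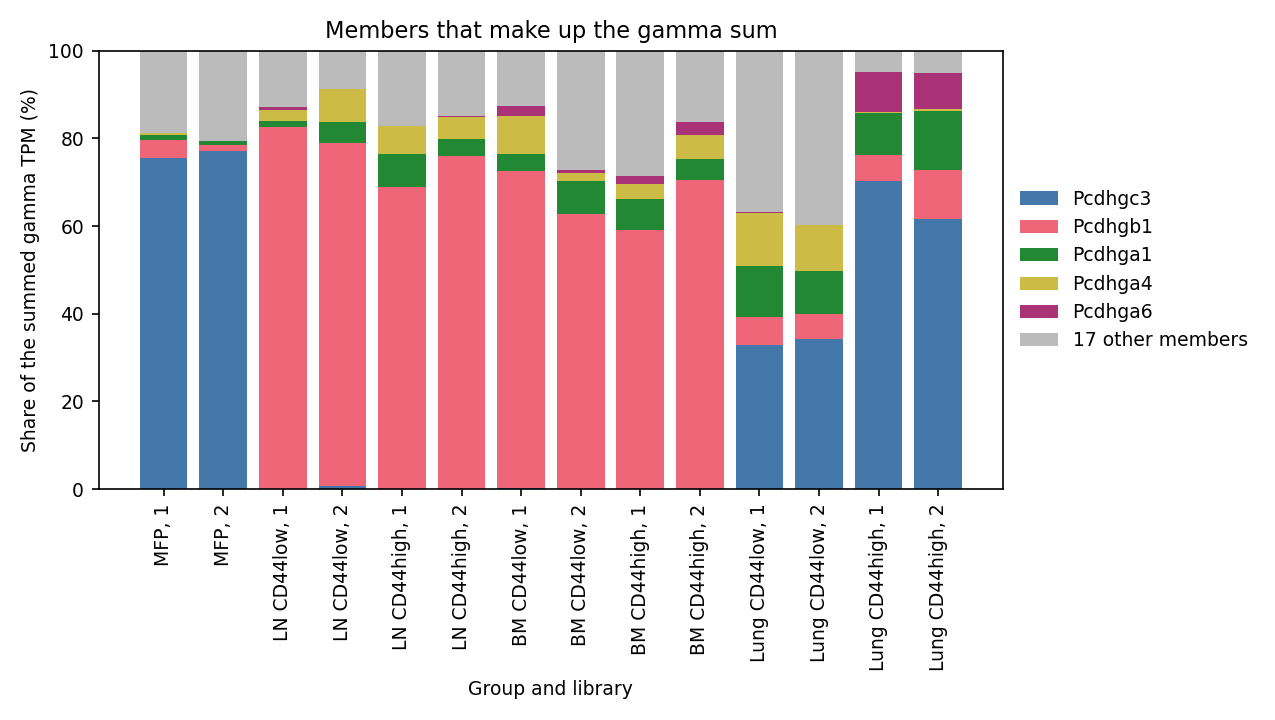
Share of the summed gamma TPM (vertical axis, percent) taken by the 5 gamma members with the highest mean TPM and by the other 17, in each of the 14 libraries. Pcdhgc3 is the largest single member in MFP and lung and Pcdhgb1 in LN and BM, and the other members together take more in lung CD44low than in lung CD44high.

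In lung, both CD44 classes had high Pcdhga1, while 7 of the 15 tested gamma members were called different between them in the limma fit, 1 higher and 6 lower in CD44high, beside 2.49% and 8.8% of all tested genes. All 7 needed the lung class where they are high to pass the filter, so nothing is read from this count. Pcdhga1, the first gene of the cluster, was 0.34 and 0.13 TPM in MFP, 0.16 and 0.43 in LN CD44low, 1.1 and 0.48 in LN CD44high, 0.46 and 0.80 in BM CD44low, 1.11 and 0.66 in BM CD44high, 10.4 and 12.1 in lung CD44low and 21.8 and 11.01 in lung CD44high. The lung libraries were all higher than the rest, and the lung groups overlap. Its log2 difference from MFP was 3.31 ± 0.34 in lung CD44low and 3.75 ± 0.34 in lung CD44high.

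Pcdhga4 was high in lung CD44low alone, at 10.8 and 13.0 TPM, against 0.76 and 0.23 in lung CD44high, 0.18 and 0 in MFP, 0.31 and 0.70 in LN CD44low, 0.91 and 0.65 in LN CD44high, 1 and 0.21 in BM CD44low and 0.52 and 0.77 in BM CD44high. The log2 difference of lung CD44high from lung CD44low was -3.13 ± 0.29. Pcdhga6 was the reverse, at 21 and 6.8 TPM in lung CD44high and 0.05 and 0 in lung CD44low, with 0 in both MFP libraries, 0.07 and 0 in LN CD44low, 0 and 0.05 in LN CD44high, 0.25 and 0.06 in BM CD44low and 0.28 and 0.41 in BM CD44high. Its log2 difference between the lung classes was 3.68 ± 0.37. Neither gene's lung groups overlap, and the higher Pcdhga6 value came from the lung CD44high library with the higher gamma sum.

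Further gamma members followed Pcdhga4. Pcdhgc5, a C-type gene, was 9.86 and 14.1 TPM in lung CD44low, at most 0.39 in lung CD44high and MFP, and 2.04 in BM CD44high replicate 1 but at most 0.41 in the other LN and BM libraries. In lung CD44low, Pcdhgb5 was 3.95 and 6.37 TPM, Pcdhga5 was 4.64 and 6.15, Pcdhga10 was 3.13 and 5.92, Pcdhgb2 was 2.55 and 5.46, and Pcdhgb7 was 2.69 and 2.88. In lung CD44high these 5 genes reached at most 0.36 TPM. Of the 15 gamma members tested, 8 had both lung CD44low libraries above all 12 others (16.1% of all tested genes did), and 2, Pcdhga6 and Pcdhgc3, had both lung CD44high libraries above all others (10.5% of all tested genes). Pcdhgc4, known for its role in neuron survival, was highest in MFP at 2.68 and 2.04 TPM, with 0.27 to 1.27 in lung and at most 0.11 in LN and BM.

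**Figure D4:**
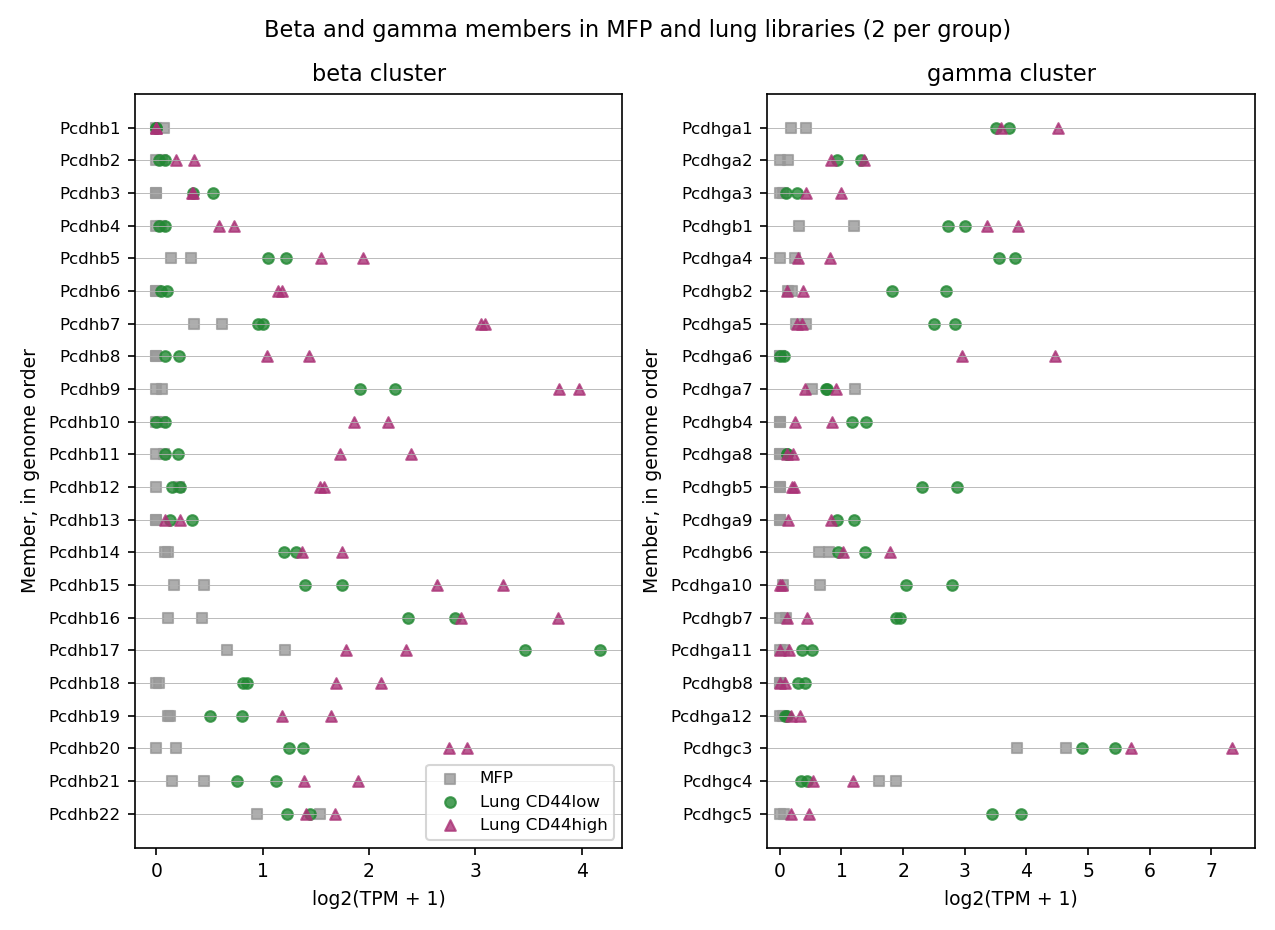
Level of the 22 beta and 22 gamma members, as log2(TPM + 1), in MFP (grey squares), lung CD44low (green circles) and lung CD44high (purple triangles), 2 libraries each. Most beta members lie furthest right in lung CD44high, apart from Pcdhb17, while among the gamma members Pcdhga1, Pcdhgb1 and Pcdhgc3 are high in both lung groups, Pcdhga6 in lung CD44high, and Pcdhga4 and Pcdhgc5 in lung CD44low.

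Of the 18 tested beta members, 12 had both lung CD44high libraries above all others (10.5% of all tested genes did), and 9 had all LN and BM libraries above both MFP libraries (9.75% of all tested genes). Pcdhb22 went the other way, at 1.9 and 0.93 TPM in MFP and 0.24 to 0.64 in LN and BM. Pcdhb16, the beta gene with the highest mean, was 0.35 and 0.08 TPM in MFP, 2.02 and 4.86 in LN CD44low, 2.68 and 3.49 in LN CD44high, 2.68 and 5.04 in BM CD44low, 3.17 and 3.15 in BM CD44high, 4.16 and 6.01 in lung CD44low and 12.7 and 6.3 in lung CD44high. All 12 metastasis-derived libraries were higher than MFP, and lung CD44low overlaps with LN and BM. Its log2 difference from MFP was 2.32 ± 0.42 in lung CD44low and 3.05 ± 0.42 in lung CD44high. In LN and BM its differences were under 2, and it passed the call without LN CD44low replicate 1 (2.28 in LN CD44low) and without MFP replicate 1 (2.13) or BM CD44low replicate 1 (2.32) in BM CD44low. With a pseudocount of 0.1 in place of 1 Pcdhb16 passed in all 4 groups (3.47 to 3.73), and with median-ratio scaling in both BM groups (2.01 and 2.05). Pcdhb16 held the largest share of the beta sum in all 8 LN and BM libraries, 13.9% to 34.4%.

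Pcdhb9 was 0 and 0.04 TPM in MFP, 0.17 and 2.68 in LN CD44low, 0.48 and 0.60 in LN CD44high, 1.35 and 0.73 in BM CD44low, 2.08 and 1.57 in BM CD44high, 2.76 and 3.74 in lung CD44low and 14.7 and 12.8 in lung CD44high. The lung CD44high libraries stand far above the rest, with a log2 difference from MFP of 3.85 ± 0.44. In lung CD44low the difference was 2.05 ± 0.44, and it fell short of the call without lung CD44low replicate 2 (1.88) or with median-ratio scaling (1.94). Pcdhb7 was 0.53 and 0.28 TPM in MFP, 0.36 and 3 in LN CD44low, 0.42 and 0.39 in LN CD44high, 2.32 and 1.97 in BM CD44low, 2.48 and 2.47 in BM CD44high, 0.94 and 1 in lung CD44low and 7.31 and 7.5 in lung CD44high. Its lung classes differed by 2.09 ± 0.40 on the log2 scale. Pcdhb15 was 0.36 and 0.12 TPM in MFP, 0.15 and 1.03 in LN CD44low, 0.23 and 0.43 in LN CD44high, 0.35 and 0.57 in BM CD44low, 0.69 and 0.50 in BM CD44high, 1.63 and 2.35 in lung CD44low and 8.59 and 5.24 in lung CD44high. For all 3 genes the lung CD44high libraries overlap with no other group.

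Pcdhb17 was the exception. It was 1.31 and 0.58 TPM in MFP, 0.68 and 1.44 in LN CD44low, 1.37 and 1.02 in LN CD44high, 1.28 and 1.89 in BM CD44low, 1.46 and 1.33 in BM CD44high, 10.0 and 17.0 in lung CD44low and 4.10 and 2.45 in lung CD44high. It took 36.5% and 42.5% of the beta sum in lung CD44low and 4.9% and 4.0% in lung CD44high. Its log2 difference from MFP was 2.88 ± 0.35 in lung CD44low and 1.13 ± 0.35 in lung CD44high. Between the lung classes it was -1.75 ± 0.35, and it passed the call without lung CD44low replicate 1 (-2.10) or lung CD44high replicate 1 (-2.03). Apart from Pcdhb7, Pcdhb9, Pcdhb15, Pcdhb16 and Pcdhb17, the highest value of a beta member was 6.55 TPM, for Pcdhb20 in lung CD44high. Pcdhb17 was the 1 tested beta member with both lung CD44low libraries above all others. Pcdhb2 was highest in BM CD44low, at 1.18 and 2.21 TPM, and at most 0.28 in lung.

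The alpha cluster was close to silent in most libraries. Pcdha11 (ENSMUSG00000007440) was 5.96 and 4.39 TPM in lung CD44high, 0.89 and 1.52 in lung CD44low, 0.07 and 0.03 in MFP, 0.23 and 0.40 in LN CD44low, 0 and 0.20 in LN CD44high, 0.26 and 0.11 in BM CD44low and 0.12 and 0.19 in BM CD44high. The lung libraries lie above all others, and the log2 difference of lung CD44high from MFP was 2.54 ± 0.21. Pcdha11 (ENSMUSG00000102206), which overlaps it, was 1.36 and 1.99 TPM in lung CD44high, 0.51 and 0 in lung CD44low, 0.16 and 0 in LN CD44low, 0 and 0.33 in LN CD44high, 0.02 and 0.04 in BM CD44low and 0 in all MFP and BM CD44high libraries. Pcdha2 was 1.7 and 1 TPM in lung CD44high, 0.48 and 0.07 in MFP, 0 and 0.06 in lung CD44low and 0 in all LN and BM libraries. Pcdha8 had values only in MFP, at 1.38 and 0.52 TPM. Pcdhac2, a C-type gene, was 0.27 and 0.33 TPM in lung CD44low, 0.03 and 0.08 in lung CD44high and 0 elsewhere. The other 9 alpha members stayed at or below 0.40 TPM.

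Over the 36 tested members of all clusters, 14 had all 4 lung libraries above all 8 LN and BM libraries, where 13.3% of all tested genes did. For 12 members all LN and BM libraries lay above both MFP libraries (9.75% of all tested genes), and for 5 they lay below (22.3%). Both lung CD44high libraries were above the other 12 for 17 members (10.5% of all tested genes), and both lung CD44low libraries for 9 (16.1%). Since the family was selected on these values, nothing is read from these counts.

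Each organ-derived group was then compared with MFP in a limma fit of all 15348 tested genes. A call needed a log2 difference beyond 2 in either direction and an adjusted p (Benjamini-Hochberg, over all genes of that comparison) under 0.05. The 6 comparisons share the same 2 MFP libraries. In each of the LN and BM groups, 1 of 36 members was called higher (Pcdhgb1) and 1 lower (Pcdhgc3). Among all tested genes, 2.07% were called higher and 2.72% lower in LN CD44low, 2.44% and 3.68% in LN CD44high, 3.99% and 3.17% in BM CD44low, and 3.64% and 4.03% in BM CD44high. The median log2 difference of the members was 0.14, 0.15, 0.32 and 0.40 in these groups, in the same order, against -0.18, -0.30, -0.04 and -0.34 over all tested genes. Without MFP replicate 2, 1 member was called in BM CD44low in place of 2. With a pseudocount of 0.1 in place of 1, the calls numbered 7, 7, 10 and 17 in the same order, and with a log2 threshold of 1 they numbered 4, 4, 7 and 10. Shares of all tested genes were not computed for these settings. Since the family was selected on these values, nothing is read from the counts or medians.

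In lung CD44low, 11 of 36 members were called higher than in MFP and 0 lower, beside 11.2% and 7.62% of all tested genes. They were Pcdhb9, Pcdhb16, Pcdhb17, Pcdhga1, Pcdhga4, Pcdhga5, Pcdhga10, Pcdhgb1, Pcdhgb2, Pcdhgb5 and Pcdhgc5. Without lung CD44low replicate 1 the count was 7, and without replicate 2 it was 5. In lung CD44high, 11 members were called higher and 0 lower by limma, beside 5.42% and 8.03% of all tested genes. They were Pcdha11 (ENSMUSG00000007440), Pcdhb7, Pcdhb9, Pcdhb11, Pcdhb15, Pcdhb16, Pcdhb20, Pcdhga1, Pcdhga6, Pcdhgb1 and Pcdhgc3. At an unadjusted p under 0.05, 1 member was lower in each lung group. With a pseudocount of 0.1 the calls numbered 21 in lung CD44low and 24 in lung CD44high, with a log2 threshold of 1 they numbered 19 and 23, and with a filter at 5 TPM there were 7 in lung CD44low. For these settings too, shares of all tested genes were not computed. The median log2 difference of the members from MFP was 0.99 in lung CD44low and 1.32 in lung CD44high, against 0 and -0.04 over all tested genes. The gamma members had the higher median in lung CD44low, 2.06 against 0.44 in lung CD44high, and the beta members the higher median in lung CD44high, 1.49 against 0.59. Members that passed the filter only through a lung group had to be higher there. The family was also selected on these values, so nothing is read from the medians or counts.

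The CD44 classes were compared within each organ. In lung, Pcdhb7 and Pcdhga6 were called higher in CD44high than in CD44low cells, 2 of 36 members beside 2.49% of all tested genes. Pcdhga4, Pcdhga5, Pcdhga10, Pcdhgb2, Pcdhgb5 and Pcdhgc5 were called lower, 6 of 36 beside 8.8%. Their log2 differences ran from -2.01 ± 0.26 for Pcdhgb2 to -3.35 ± 0.35 for Pcdhgc5, and without lung CD44low replicate 2 the calls numbered 4 in place of 8. They numbered 18 with a pseudocount of 0.1, 22 with a log2 threshold of 1 and 4 with a filter at 5 TPM, with no share of all tested genes computed for these settings. Of the beta members 17 of 18 had a positive difference, with a median of 1.08, while 9 of 15 gamma members had a negative one, with a median of -0.74. Members that passed the filter only through lung CD44low or only through lung CD44high had their sign fixed by it. The family was also selected on these values, so nothing is read from these calls, signs or medians. In LN and in BM, 0 of 36 members were called by limma in either direction, and 0 had an unadjusted p under 0.05. Among all tested genes, 0.117% were called higher and 0.0912% lower in LN, and 0.0521% in each direction in BM. A p that misses the threshold does not show that the classes are alike in these organs.

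The levels of the members were most alike between replicates in lung and BM, and less so in LN and MFP. Over the 36 tested members, Spearman's rho of the TPM values between the 2 libraries of a group was 0.963 in lung CD44low, 0.955 in lung CD44high, 0.919 in BM CD44high, 0.856 in BM CD44low, 0.764 in MFP, 0.755 in LN CD44high and 0.732 in LN CD44low. Between a lung CD44low and a lung CD44high library it was -0.032 to 0.093, whereas between BM CD44low and BM CD44high libraries it was 0.877 to 0.954 and between LN CD44low and LN CD44high libraries 0.666 to 0.866. Between LN and BM libraries rho was 0.698 to 0.912. These are correlations across genes that share exons and neighbours, and genes are not independent replicates. Members that passed the filter only through lung CD44low or only through lung CD44high differ between these classes by selection, which can lower rho between them. Most members were under 1 TPM in the MFP, LN and BM libraries, where ranks rest on low values.

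The genes most like the family in their pattern were found by Pearson's r of log2(TPM + 1) over the 14 libraries, among genes outside the family. The libraries fall into groups, so r is a description of group levels. Closest to the beta sum were Pik3ip1, an inhibitor of PI3 kinase (r = 0.956), Casp12, a caspase linked to endoplasmic reticulum stress (0.951), Sorbs3, a vinculin-binding adaptor (0.951), 3300002I08Rik (0.943) and Bdh2 (0.935). Sorbs3, for example, was 0.09 and 0.04 TPM in MFP, 4.68 to 24.5 in LN, 16.0 to 18.4 in BM, 33.0 and 34.6 in lung CD44low and 85.6 and 107 in lung CD44high. Closest to the gamma sum were the adhesion gene Flrt2 (r = 0.980), the kinase gene Mark1 (0.979), Gm4070 (0.976), the collagen gene Col12a1 (0.974) and Mical2, which acts on actin (0.971). Flrt2 was 1.62 and 0.39 TPM in MFP, at most 0.03 in LN and BM, 4.36 and 6 in lung CD44low and 11.1 and 8.27 in lung CD44high.

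Among 23 regulators of the clusters, 3 had a call in any comparison, all in lung. Uhrf1, which brings the maintenance methyltransferase to newly made DNA, was 66.8 and 32.6 TPM in MFP, 16.5 to 74.4 in LN and BM, 0.90 and 0.84 in lung CD44low and 0.30 and 1.58 in lung CD44high. The lung libraries do not overlap with the rest, with log2 differences from MFP of -4.67 ± 0.61 and -4.70 ± 0.61. In the single-cell libraries Uhrf1 was not lowest in lung as a whole, with 1.31 per 10000 summed counts in lungH (exact 95% Poisson interval 1.17 to 1.47), 0.495 in lungL (0.407 to 0.597) and 0.751 in lymphH (0.679 to 0.828). Dnmt1, that methyltransferase, was 49.8 and 37.6 TPM in MFP, 19.3 to 88.3 in LN and BM, 7.05 and 7.81 in lung CD44low and 19.8 and 9.55 in lung CD44high, and was called lower in lung CD44low. Its single-cell level was 1.33 counts per 10000 in lungH, 0.720 in lungL and 0.951 in lymphH. Tet2, which oxidises methylated cytosine, was 0.80 and 1.76 TPM in MFP and 17.3 and 11.1 in lung CD44high, where it was called higher. Its single-cell counts were few, 5 in lungH, 16 in lungL and 6 in lymphH, and were not highest in lungH. Of the 23, 2 were called lower in lung CD44low, and 1 higher and 1 lower in lung CD44high, beside the shares of all genes given above. Their median log2 difference from MFP was -0.41 in lung CD44low and 0.07 in lung CD44high. Smchd1 was 8.5 to 26.8 TPM over all 14 libraries, with no call.

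Of 21 intracellular partners and cleavage enzymes, 3 had a call against MFP. The shares of all tested genes given above are for single comparisons. A share with a call in any comparison was not computed, for this or the other lists. Ptk2b, a kinase that protocadherin tails are known to bind and inhibit, was 47.1 and 36.9 TPM in MFP, 2.54 to 23.3 in LN and BM, 0.40 and 1.01 in lung CD44low and 21.3 and 9.67 in lung CD44high. It was called lower than MFP in lung CD44low, LN CD44high and both BM groups, and higher in lung CD44high than in lung CD44low by 3.20 ± 0.52. Psen2, a subunit of the gamma-secretase that cuts protocadherins, was called lower in BM CD44low (-2.23 ± 0.26). Wasf2, of the WAVE complex that clustered protocadherins recruit to actin, was called higher in lung CD44low, with 155 and 167 TPM against 31.9 and 30.8 in MFP, and stood at 155 TPM in BM CD44low replicate 2 as well. The median log2 difference of the list from MFP was 0.06 in lung CD44low and -0.06 in lung CD44high.

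Among 21 protocadherins outside the clusters and related cadherins, 9 were tested. Pcdh7 was 0.10 TPM in BM CD44low replicate 1 and 0 in the other 7 libraries from LN and BM, against 19.5 and 11.6 in MFP, 28.4 and 42.8 in lung CD44low and 26.1 and 23.7 in lung CD44high. As for Pcdhgc3, all LN and BM libraries lay below MFP and lung, but Pcdh7 was higher in lung CD44low than in lung CD44high. The atypical cadherin Fat4 was at most 0.91 TPM in MFP, LN and BM, 5.29 and 8.19 in lung CD44low and 38.0 and 16.8 in lung CD44high, and was called higher in both lung groups. Fat1 was called higher in lung CD44high than in MFP and in lung CD44low, and Pcdh18 higher in lung CD44high than in lung CD44low. Celsr1, a planar polarity cadherin, was called lower than MFP in both lung groups, and Pcdh1 in lung CD44low. The median of the 9 was -0.41 in lung CD44low and 0.91 in lung CD44high. Of 16 genes that neighbour the clusters 13 were tested, and calls were made for Cd14 and Wdr55 alone, both lower in lung CD44low than in MFP, with Cd14 higher in lung CD44high than in lung CD44low by 2.24 ± 0.48. The neighbours had a median of -0.75 in lung CD44low and -0.60 in lung CD44high, lower than those of the members. The members were selected on these values and many passed the filter through lung, so nothing is read from this difference.

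Markers of other cell types were read in the same fit. Of the 7 epithelial markers tested, all 7 were called lower than MFP in both lung groups, and in LN and BM 2 or 3. Of the 8 fibroblast markers, all 8 were called higher than MFP in lung CD44low, 3 in lung CD44high, 2 in BM CD44low, 1 in BM CD44high and 1 in LN CD44high. Between the lung classes, 7 were called lower in lung CD44high. Col1a2, Lum and Thy1 were at or below 0.05 TPM in lung CD44high. Dcn was 166 and 78.9 TPM there, against at most 1.75 in MFP, LN and BM, and Pdgfra was 21.45 and 4.51 TPM there. Clustered protocadherins are best known from neurons, and of the 8 neuron markers Elavl3, Elavl4, Snap25 and Syp were at most 0.17 TPM in any library. Rbfox3, a marker of mature neurons, was 0.91 to 2.87 TPM in LN and BM and 0 in MFP and lung, Tubb3 reached 3.3 TPM in LN CD44low and 2.17 in lung CD44low, and Stmn2 reached 1.16 in lung CD44low. Of these markers 3 were tested, and Map2, which many cells express, was 98.4 and 111 TPM in lung CD44low, 55.9 and 39.8 in lung CD44high and 83.0 in BM CD44low replicate 2, with 1 neuron marker called higher in lung CD44low. Of 6 glial markers 2 were tested, and Mbp made up most of their sum, with 24.0 and 17.2 TPM in MFP and 0.57 to 2.49 in lung. Of 6 macrophage markers 2 were tested, and Lyz2 was called higher than MFP in both lung groups and LN CD44low, while Cd68 was called lower in LN CD44high and BM CD44low, and Ptprc was at most 0.20 TPM. The 5 endothelial markers summed to at most 0.2 TPM in any library. How far the cell types behind these markers contribute to the members' values was not tested.

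The single-cell libraries are a separate readout of the same kinds of cells, with 1 library per group and hence no test. Epithelial and fibroblast markers did not all follow the bulk values. Epcam had 3 counts in lungH and 0 in lungL against 936 in lymphH, and Cdh1 had 0, 0 and 196. Krt18 was 2.59 counts per 10000 in lungH, 0.522 in lungL and 1.17 in lymphH, and Krt8 was 1.67, 0.135 and 2.80. Col1a1, a fibroblast collagen, had 965 counts in lungL against 5 in lungH. Col1a2 had 3192 against 0, Pdgfrb 325 against 15, Pdgfra 141 against 39, Col3a1 102 against 0 and Thy1 8 against 0. Dcn, at 4091 and 4315 TPM in bulk lung CD44low, had only 22 in lungL and 0 in lungH, and Lum had 0 in both. After filtering the single-cell libraries held 1236 lungH, 348 lungL and 2562 lymphH cells. They had 2210623, 2220759 and 5287425 counts and a median of 557, 4011 and 585 counts per cell. Counts were summed over cells and given per 10000 counts, with exact 95% Poisson intervals that cover counting error only. The gamma members held 2.90 counts per 10000 in lungH (2.68 to 3.14, 642 counts), 2.80 in lungL (2.59 to 3.03, 622 counts) and 0.176 in lymphH (0.142 to 0.215, 93 counts). The lung libraries overlap in their intervals, and both lie far above lymphH. The beta members held 1.08 counts per 10000 in lungH (0.948 to 1.23), 0.824 in lungL (0.709 to 0.952) and 0.607 in lymphH (0.542 to 0.677). The alpha members held 20 counts in lungH, 3 in lungL and 5 in lymphH, or 0.0905 per 10000 (0.0553 to 0.140), 0.0135 (0.00279 to 0.0395) and 0.00946 (0.00307 to 0.0221).

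**Figure D5:**
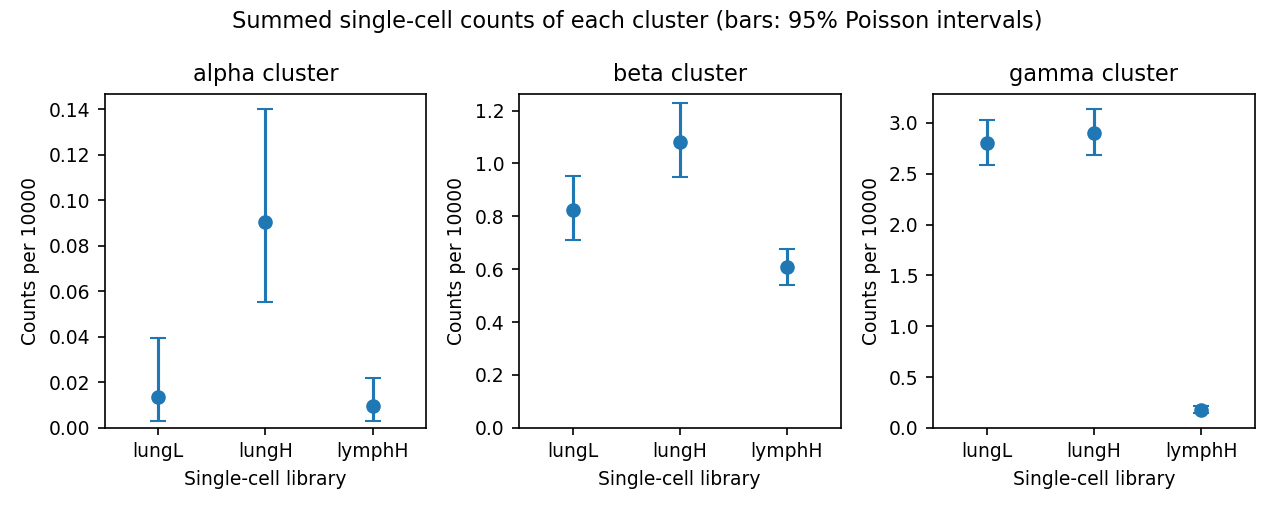
Summed single-cell counts of the alpha, beta and gamma members per 10000 counts (vertical axes, each from 0) in lungL, lungH and lymphH. Points are the sum over the kept cells of 1 library and bars are exact 95% Poisson intervals. The gamma points of both lung libraries lie near 3 and that of lymphH near 0.2.

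In these 3′ counts almost all gamma counts were assigned to Pcdhgc4 and almost all alpha counts to Pcdha4 (19 of 20 in lungH). Pcdhgc4 had 618 of the 642 gamma counts in lungH, 597 of 622 in lungL and 81 of 93 in lymphH, although in bulk it was at most 1.27 TPM in lung. Pcdhgc3, the leading gamma gene of the lung bulk libraries, had 12 counts in lungH, 3 in lungL and 0 in lymphH. Pcdhgb1, which led the LN bulk libraries, had 0 counts in all 3. Pcdhga6 had 0 counts in lungH, and Pcdhga4 had 5 in lungH and 1 in lungL. The 3′ end of these transcripts lies in the shared exons, so the single-cell counts can be read for a cluster as a whole and not for its alpha or gamma members.

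The beta members share no exons, other than the overlap of the 3′ end of Pcdhb21 with Pcdhb22, and the others could be read one by one. Pcdhb17 led in all 3 libraries, with 0.285 counts per 10000 in lungH (0.219 to 0.365), 0.320 in lungL (0.250 to 0.403) and 0.140 in lymphH (0.110 to 0.176). The lung intervals overlap, while in bulk lung CD44low stood above lung CD44high. Pcdhb16 was 0.0769 per 10000 in lungH (0.0448 to 0.123), 0.0585 in lungL (0.0312 to 0.1) and 0.136 in lymphH (0.107 to 0.171), so its lung values were not above lymphH. Pcdhb9 had 8 counts in lungH, 0 in lungL and 17 in lymphH, Pcdhb15 had 9, 0 and 5, and Pcdhb11 had 13, 0 and 24. Per 10000, lungH and lymphH stood at 0.0362 and 0.0322 for Pcdhb9, 0.0407 and 0.00946 for Pcdhb15, and 0.0588 and 0.0454 for Pcdhb11. For each gene these intervals overlap. A count of 0 in lungL allows up to 0.0135 per 10000, taking 3 counts of the total as the limit. Pcdhb7, the beta gene at 7.31 and 7.5 TPM in the lung CD44high bulk libraries, had 2 counts in lungH, 2 in lungL and 15 in lymphH. Per 10000 this was 0.00905, 0.00901 and 0.0284. Pcdh7, outside the clusters, had 272 counts in lungH, 539 in lungL and 0 in lymphH, where the same limit is 0.00567 per 10000.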

How the data were processed

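Bulk cDNA was made by the authors with a modified SMART-seq2 protocol, aligned to mm10 with STAR and quantified with RSEM on GENCODE, and the deposited values are TPM per gene, a unit with a fixed total. The study's methods state a minimum read depth for the bulk libraries, but the depth of each library is not given in the sources used here, so the counting error of a TPM value was not computed. For single cells the authors assigned barcodes with Ddseeker and quantified with kallisto, and the deposited values are unfiltered counts per gene and barcode. Barcode sequences are not in the column names, so barcodes shared between libraries could not be counted, and doublets were not removed.

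Symbols came from the row names of the lungH table, and exons and transcripts from the GENCODE annotation given with the genome. Sequences of the members are not analysed beyond the share of unique words. A gene was tested if 2 or more libraries reached 1 TPM (15348 of 55450 genes). The log2(TPM + 1) values were fitted in R 4.3.3 with limma 3.58.1 (lmFit, then eBayes with trend), 1 mean for each of the 7 groups, which leaves 7 residual degrees of freedom. The study itself used edgeR on counts that are not used here. The scripts were tested on simulated data. Single cells were kept above 250 detected genes and below 10% of mitochondrial counts.

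The members and gene lists were chosen with earlier results of these data known. Members given in full are the 5 with the highest mean TPM in each cluster and those called in 3 or more of the 9 comparisons. Further members named in the text, beyond those called, were singled out after their values were seen. From the lists (regulators, intracellular partners and cleavage enzymes, other protocadherins and related cadherins, neighbours), genes with any call are named, and other list genes named were singled out after their values were seen. The marker lists are epithelial, fibroblast, neuron, glia, macrophage and endothelial. Alternatives were a pseudocount of 0.1, other filters (no filter, or 5 TPM), median-ratio scaling, a replicate block, a log2 threshold of 1, other detection limits, other cell filters and each library left out.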

Additional observations from a re-analysis of the deposited data

Results flagged for a closer look

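Pcdhgc3 moved in opposite directions against the same MFP libraries. Both lung CD44high libraries lay above both MFP libraries, with a log2 difference of 2.27, while all LN and BM libraries lay below them, with differences of -4.21 in LN CD44low, -4.25 in LN CD44high, -4.22 in BM CD44low and -4.25 in BM CD44high. Leaving out each library in turn gave 1.45 to 3.09 for the lung CD44high difference. The difference between the lung CD44high effect and those in LN and BM was not tested. All of these effects share the MFP libraries.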

How the results depend on the processing

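With a pseudocount of 0.1, the members called against MFP numbered 7 in LN CD44low, 7 in LN CD44high, 10 in BM CD44low, 17 in BM CD44high, 21 in lung CD44low and 24 in lung CD44high, and 18 between the lung classes. With a log2 threshold of 1 they numbered 4, 4, 7, 10, 19, 23 and 22 in the same order. With a minimum of 5 TPM, which tests fewer genes, 7 were called in lung CD44low and 4 between the lung classes. Shares of all tested genes were not computed under these settings, so the counts cannot be set against them. Leaving out each library in turn gave 2 to 3 in LN CD44low, 1 to 3 in BM CD44low, 5 to 11 in lung CD44low, 8 to 11 in lung CD44high and 4 to 8 between the lung classes. Replicate numbers were not used as pairs in the main fit. Deviations of same-numbered CD44low and CD44high libraries correlated at -0.089 in LN, 0.073 in BM and -0.194 in lung. These values cannot show whether same-numbered libraries came from the same mouse. With a replicate block the counts were 2 in each LN and BM group, 11 in each lung group and 8 between the lung classes, each the same genes as without it, and the crossed pairing in lung, chosen after seeing the data, also gave 8.

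Counted in 1 library or more, members with at least 1 TPM numbered 7 in MFP, 8 in LN CD44low, 5 in LN CD44high, 11 in BM CD44low and 14 in BM CD44high. At 0.5 TPM these groups had 6, 4, 6, 12 and 15. At 5 TPM they had 1 each, lung CD44low had 6 and lung CD44high 9. Median-ratio scaling gave beta sums of 12.8 TPM in LN CD44high and 27.0 in BM CD44high, and gamma sums of 16.5 and 18.0. Restricting sums to tested members gave alpha sums of 0.32 in MFP, 0.40 in LN CD44low and 1.49 in lung CD44low, and gamma sums of 12.8 in LN CD44high and 10.3 in BM CD44low. Over all barcodes the gamma count in lungL was 2.45 per 10000, and over cells with more than 500 genes the beta count in lymphH was 0.692. Among the 13 tested members given in full, no fold change that was called changed sign under the alternatives tried, while 32 values of fold changes that were not called did, all from fold changes of at most 0.74 on the log2 scale. Counting error, not computed from TPM, limits the values under 1 TPM, and counts of single alpha and gamma members rest on the division of reads from shared exons.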
